A study of Mus musculus with 20 samples.

Results

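The cochlear transcriptome of *Bai1tm2b/tm2b* mice was compared with that of *Bai1tm2b/+* mice at postnatal day 22 (P22), when hearing has begun and the cochlea is close to its adult form. The comparison used 6 of the 20 RNA-seq libraries of the series, 3 from homozygous *Bai1tm2b/tm2b* mice and 3 from heterozygous *Bai1tm2b/+* mice, which serve as controls. Every gene with enough counts entered the comparison, 15443 of the 24411 genes listed. Both genotypes carry the tm2b allele of *Adgrb1*, the gene that encodes BAI1, on a C57BL/6N background. In this allele exons 3 and 4 are replaced by a lacZ cassette, after a Cre enzyme had converted a knockout-first allele in embryos. The controls therefore have 1 copy of the allele, and wild-type mice were not part of the comparison. According to the methods, the allele removes the long isoform and leaves the short isoform, so the homozygous mice are not null for the whole gene. Sensory epithelium and spiral ganglion were dissected from the apical coil and pooled from 4 mice per library. Mice of both sexes were used in the study, and the sex makeup of these pools is not given. Because each library is a pool, the spread between libraries measures pools of animals and not single animals.

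BAI1 is an adhesion G protein-coupled receptor that sits in postsynaptic membranes, where its extracellular thrombospondin repeats can bind ligands and its intracellular part binds scaffold proteins and regulators of the actin cytoskeleton. In the cochlea, inner hair cells release glutamate onto the terminals of type I spiral ganglion neurons, which fire through AMPA receptors and carry sound information to the brainstem. Outer hair cells amplify the sound-evoked motion and are contacted by type II neurons and by cholinergic efferents, and both kinds of hair cell are held in a mosaic of supporting cells under the tectorial membrane. Schwann cells, satellite glia, fibrocytes, vessels, macrophages and the marrow of the surrounding bone also contribute RNA to a dissected coil.

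The deleted exons are shown because they define the allele that separates the groups. Both lie on the plus strand of chromosome 15 in GRCm38 and were read from the long transcript, with 31 exons, in the GENCODE M21 annotation. Exon 3 spans chr15:74538298-74538459 and codes for part of a thrombospondin type 1 repeat, and its 6 in-frame cysteine codons are in capitals. Exon 4 spans chr15:74539203-74539313 and holds no in-frame cysteine codon.
Adgrb1 exon 3: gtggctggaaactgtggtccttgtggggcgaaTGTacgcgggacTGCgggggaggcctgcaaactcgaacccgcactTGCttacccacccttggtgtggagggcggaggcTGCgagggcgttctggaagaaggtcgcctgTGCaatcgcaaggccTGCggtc
Adgrb1 exon 4: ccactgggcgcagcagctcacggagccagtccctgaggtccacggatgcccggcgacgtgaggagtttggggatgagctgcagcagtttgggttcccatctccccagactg
The lengths of 162 and 111 bases are both whole multiples of a codon, 273 bases in all, so joining exon 2 directly to exon 5 would keep the reading frame. The data give 1 value per gene and do not separate transcripts with these exons from those without them.

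*Adgrb1* itself was lower in homozygous mice. Its level was 139, 137 and 151 CPM in control and 93.3, 90.8 and 95.8 CPM in homozygous libraries, in the order of replicates 1 to 3, where CPM is the count scaled to a common library total with TMM factors. These values average 142 ± 7.34 CPM in controls and 93.3 ± 2.51 CPM in homozygous mice (SD, n = 3 each). All homozygous libraries lay below all controls, as held for 17.9% of all genes tested. The gene fell (log2 fold change -0.61, SE 0.0585, adjusted p = 0.000602, quasi-likelihood test of edgeR, Benjamini-Hochberg method over all genes tested, as for every adjusted p value given here). The value sums all isoforms of the gene, among them the short isoform that the allele leaves. Scaled on pan-neuronal genes, as explained below, the log2 fold change was -0.27 and the gene was not called.

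Libraries held between 35725985 and 40350413 estimated counts. A few stood apart from the rest of their group in ways that touch single gene groups. Control replicate 2 contained stria vascularis and pigment cell RNA, with *Dct*, a melanin synthesis enzyme, at 240.2 CPM against 1.08 and 1.80 CPM in the other controls, and *Kcne1*, a subunit of the marginal cell potassium channel, at 53.8 CPM against 0.555 and 0.954 CPM. Homozygous replicates 1 and 2 had more neutrophil RNA than the rest, with *S100a8* at 10.3 and 9.33 CPM against 1.85 CPM in homozygous replicate 3 and 1.24 to 3.55 CPM in controls. The same libraries had more oligodendrocyte RNA, described below. Homozygous replicate 2 held no counts of the Y-linked genes *Ddx3y* and *Eif2s3y*, so this pool showed no male RNA by these genes. The sex of the mice in each pool is not given. Whether any of these differences took part in a result below was not tested unless a value is given beside it.

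**Figure D1:**
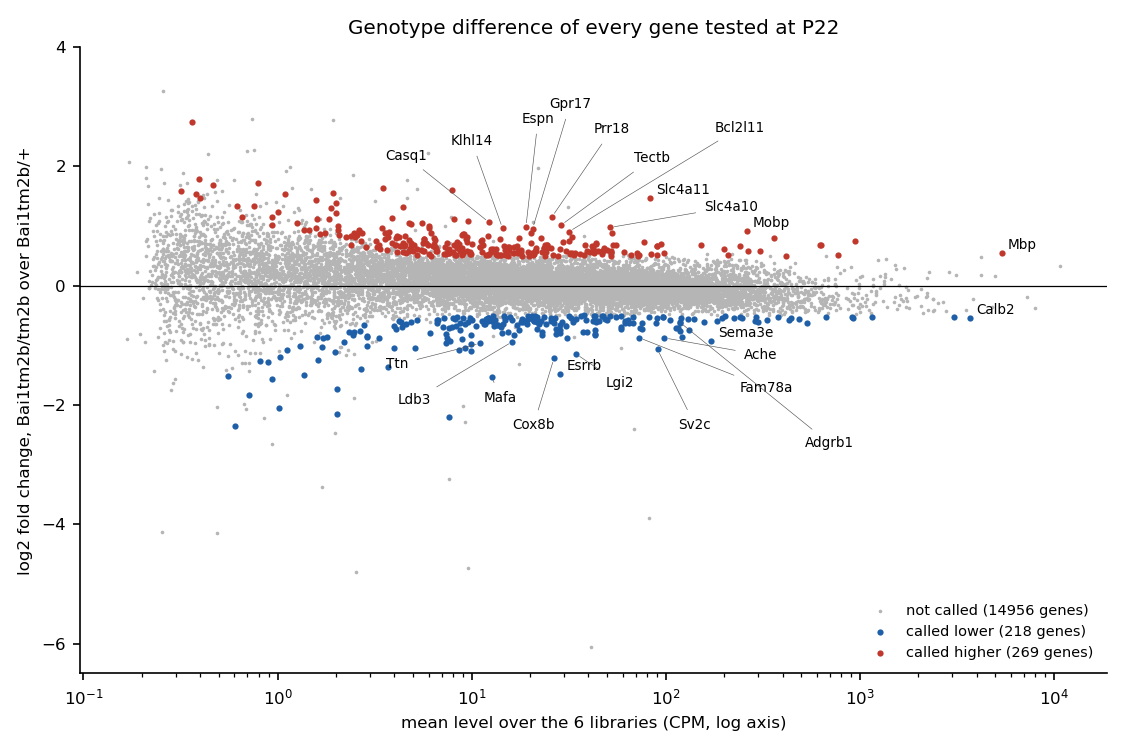
Each point is 1 of the 15443 genes tested, with the mean level over the 6 libraries on a log axis (CPM) against the log2 fold change of *Bai1tm2b/tm2b* over *Bai1tm2b/+*; red and blue points are genes called higher (269) and lower (218), and labels mark *Adgrb1* and genes of the rule for named genes. The labelled decreases include *Mafa* (-1.52), *Lgi2* (-1.15) and *Sv2c* (-1.07), and the labelled increases include *Tectb* (1.02) and *Mobp* (0.92).

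Across the transcriptome, 269 genes were called higher (1.74% of those tested) and 218 lower (1.41%). A gene was called when its adjusted p was under 0.05, its log2 fold change passed 0.5 in size and its standard error (SE) was under 0.5. Single libraries moved these counts: 108, 160 and 117 genes were called higher without control replicate 1, control replicate 3 and homozygous replicate 2, and 125 were called lower without control replicate 3. With the adjusted p alone, 779 genes passed higher (5.04%) and 1125 lower (7.28%), so decreases outnumbered increases among changes of any size while increases were more numerous among those past the fold limit. The median log2 fold change over all genes was 0.01. Genes of neurons were lower as a group, and the balance depended on what the libraries were scaled to. When scaling used library totals alone, 399 genes were called higher (2.58%) and 134 lower (0.868%). When scaling instead made the median of 24 pan-neuronal genes equal between genotypes, the median of all genes moved to 0.35, with 3136 genes called higher (20.3%) and 43 lower (0.278%). A gene still called lower on that scale had decreased relative to neuronal RNA as a whole, and this was noted for each gene below. In bulk tissue, fewer cells of a type and less RNA per cell cannot be told apart.

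Of 270 genes named by rule, 58 were called lower and 56 higher, and 16 of the 58 were still called lower when scaled on the pan-neuronal genes. Those 16 were *Ache*, *Chrna4*, *Cox8b*, *Esrrb*, *Fam78a*, *Kcnk10*, *Kcnq5*, *Ldb3*, *Lgi2*, *Mafa*, *Mybpc2*, *Nrxn3*, *Rgs8*, *Sema3e*, *Sv2c* and *Ttn*. They include a transcription factor, a vesicle protein, a secreted synaptic protein, a guidance cue, cholinergic genes, potassium channels and sarcomere proteins. *Esrrb*, an orphan nuclear receptor of strial marginal cells, was high in 1 library. It measured 21.2, 83 and 22.6 CPM in control and 14.6, 15.9 and 14.7 CPM in homozygous libraries, its call (log2 fold change -1.49, SE 0.429, adjusted p = 0.0473) was lost without homozygous replicate 1 (-1.47), homozygous replicate 2 (-1.53) or homozygous replicate 3 (-1.47), and with DESeq2 (-1.49) or scaling on library totals alone (-1.43). Its high value fell in the control that also held the strial genes above, and without control replicate 2 the log2 fold change was -0.54. Here and below, a value in parentheses after a library that was left out is the log2 fold change of the fit without it.

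*Mafa* showed the largest decrease among these besides *Mybpc2* and *Rgs8*. *Mafa* encodes a large Maf transcription factor and lies on the minus strand of chr15:75745490-75748228. It measured 18.9, 16.6 and 21.1 CPM in control and 6.85, 7.45 and 5.34 CPM in homozygous libraries, and the groups were well apart (log2 fold change -1.52, SE 0.139, adjusted p = 0.000554). Scaled on the pan-neuronal genes, the log2 fold change was still -1.18. The gene lies 1.16 Mb from *Adgrb1*, on the chromosome that carries the targeted allele. Of 62 genes tested within 2 Mb of *Adgrb1*, only *Mafa* and *Arc* were called, both lower, where 1.41% of all genes were called lower. With the adjusted p alone, 10 of the 62 passed, most of them lower, where 5.04% of all genes passed higher and 7.28% lower. The median log2 fold change of the 62 was 0.02. Whether the edited chromosome itself affects *Mafa* was not tested.

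*Lgi2*, *Sv2c* and *Sema3e* also fell, with no overlap between groups, as held in either direction for 33.6% of all genes tested. *Lgi2* encodes a secreted leucine-rich protein of the LGI family, whose members bind ADAM22-type receptors at synapses. Its level was 46.2, 43.1 and 53.6 CPM in control and 22.1, 21.7 and 20.8 CPM in homozygous libraries (log2 fold change -1.15, SE 0.0872, adjusted p = 0.000303). *Sv2c* encodes a synaptic vesicle glycoprotein and measured 128, 96.3 and 144 CPM in control and 55.5, 62.6 and 57.7 CPM in homozygous libraries (log2 fold change -1.07, SE 0.122, adjusted p = 0.00125). *Sema3e* encodes a secreted semaphorin that guides axons and vessels and measured 219, 203 and 256 CPM in control and 109, 123 and 123 CPM in homozygous libraries (log2 fold change -0.93, SE 0.0865, adjusted p = 0.000574). For all of these genes the highest homozygous library lay under the lowest control, and the decreases on the pan-neuronal scale were -0.81, -0.72 and -0.59.

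Cholinergic genes and a mitochondrial subunit followed. *Ache*, which encodes acetylcholinesterase, measured 127, 127 and 129 CPM in control and 74.1, 64.7 and 69.5 CPM in homozygous libraries, and it had one of the smallest spreads between libraries (log2 fold change -0.88, SE 0.0623, adjusted p = 0.000303). *Chrna4*, a neuronal nicotinic receptor subunit, measured 12.4, 13 and 11.8 CPM in control and 6.09, 6.35 and 5.61 CPM in homozygous libraries (log2 fold change -1.05, SE 0.11, adjusted p = 0.000906). *Cox8b* encodes a muscle-type subunit of cytochrome c oxidase and measured 36, 45.2 and 30.3 CPM in control and 14.4, 15.7 and 17.8 CPM in homozygous libraries (log2 fold change -1.22, SE 0.136, adjusted p = 0.00121). *Fam78a*, a gene of unclear function, measured 94.9, 90.6 and 98.4 CPM in control and 59.1, 48 and 47.8 CPM in homozygous libraries (log2 fold change -0.87, SE 0.0848, adjusted p = 0.000602), and 19.6% of its exon bases overlap another gene on the same strand.

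**Figure D2:**
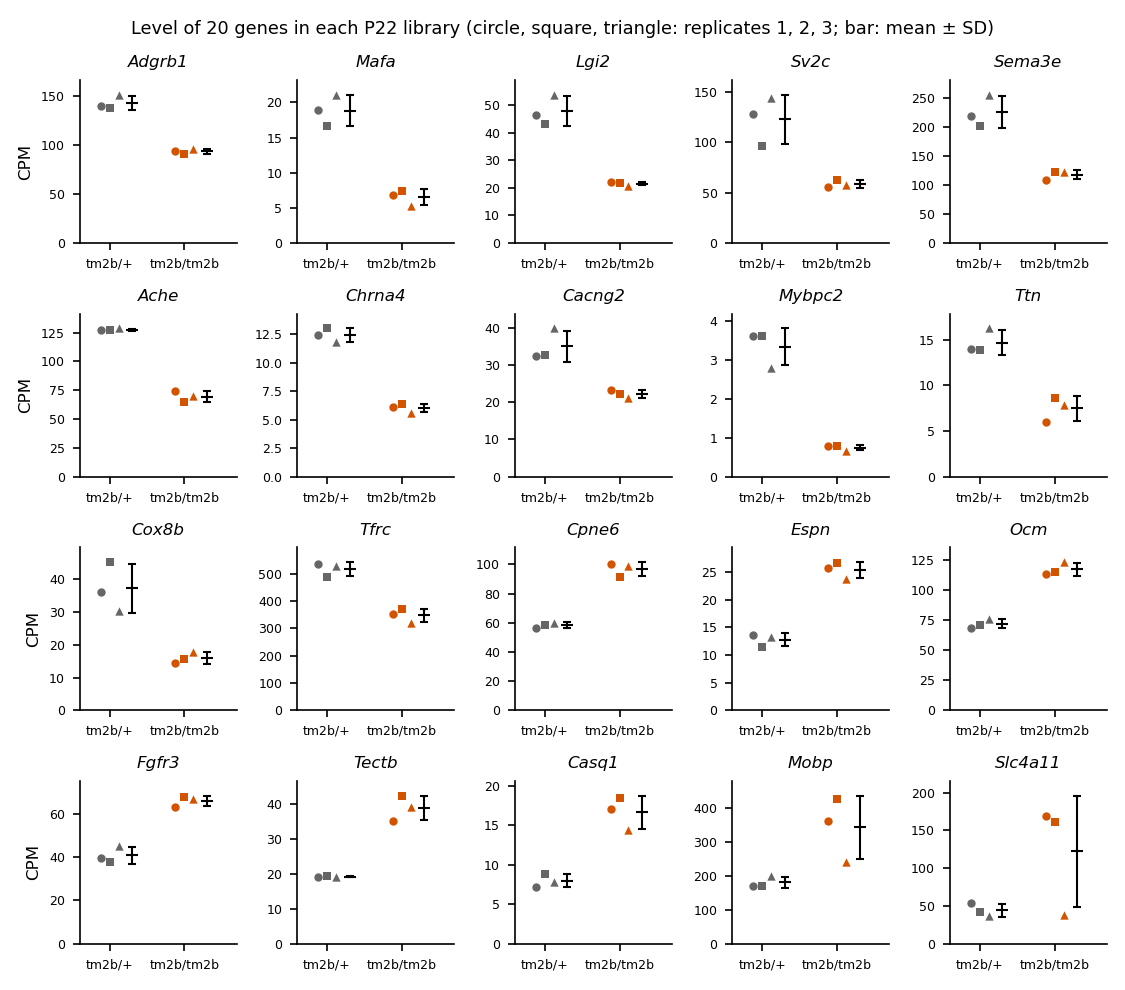
Levels of single genes in each P22 library (CPM, linear axes from 0), with circles, squares and triangles for replicates 1, 2 and 3 of *Bai1tm2b/+* (grey) and *Bai1tm2b/tm2b* (orange) and bars for mean ± SD. The groups did not overlap for any gene shown, where 33.6% of all genes tested had such groups, except *Slc4a11*, for which homozygous replicate 3, at 37.8 CPM, lay among the controls.

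Promoters were read for the 10 largest decreases, to show whether they share the Maf half-site, since *Mafa* was among them. The letters searched were TGCTGA, on both strands, in the window from 250 bases before to 50 bases after the RefSeq start (GRCm38.p6). An entry was found for 9 of the 10 genes, and 3 held a match, shown in capitals (TCAGCA is the other strand). *Lgi2* lies at chr5:52566257-52566556, *Ttn* at chr2:76982498-76982797 and *Fam78a*, which has 4 starts in the table of which the first was used, at chr2:32084620-32084919, all on the minus strand.
Lgi2: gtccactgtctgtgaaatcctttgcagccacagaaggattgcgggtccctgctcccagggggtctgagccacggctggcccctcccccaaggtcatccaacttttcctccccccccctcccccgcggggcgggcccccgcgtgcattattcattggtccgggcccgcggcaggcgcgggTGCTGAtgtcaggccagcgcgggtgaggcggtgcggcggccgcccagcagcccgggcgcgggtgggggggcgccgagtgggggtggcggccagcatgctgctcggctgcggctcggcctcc
Ttn: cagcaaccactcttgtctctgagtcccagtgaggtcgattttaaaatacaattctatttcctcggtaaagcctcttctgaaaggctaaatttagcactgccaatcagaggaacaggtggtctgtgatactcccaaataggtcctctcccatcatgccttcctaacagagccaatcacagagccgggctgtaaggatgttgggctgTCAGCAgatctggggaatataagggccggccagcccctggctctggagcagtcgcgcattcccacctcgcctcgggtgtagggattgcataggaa
Fam78a: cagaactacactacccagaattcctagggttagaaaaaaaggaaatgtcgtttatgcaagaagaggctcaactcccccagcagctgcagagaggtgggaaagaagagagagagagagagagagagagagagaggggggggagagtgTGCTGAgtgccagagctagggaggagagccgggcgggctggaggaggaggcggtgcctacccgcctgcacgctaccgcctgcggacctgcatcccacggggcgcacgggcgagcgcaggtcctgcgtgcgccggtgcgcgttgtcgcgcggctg
The same letters occurred in 15.5% of 11626 promoters of genes tested, in 13.4% of 157 of genes called lower and in 17.2% of 198 of genes called higher, so a match was no more frequent among all genes called lower than among all genes tested. The 3 of 9 found among the 10 largest decreases are too few promoters to compare. A further pair of motifs was described in the same way. The element TCAAGGTCA, to which estrogen-related receptors bind, occurred in 0.275% of all promoters, 1.27% of those called lower (2 of 157) and 0.505% of those called higher (1 of 198). These are too few matches to compare. The half-site TGACG, to which CREB binds, occurred in 30%, 21.7% and 16.7%.

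Pan-neuronal genes were mostly lower in homozygous mice, by modest amounts. Of 24 genes tested, 22 had a log2 fold change below 0, 16 passed the adjusted p alone in that direction, and 2 were called (*Nefh* and *Ina*), with a list median of -0.34 and members from -0.59 to 0.41. The summed level was 26898 to 30390 CPM in controls and 20894 to 23144 CPM in homozygous libraries, with no overlap. *Ina*, which encodes the neurofilament partner alpha-internexin, measured 338, 315 and 384 CPM in control and 237, 226 and 225 CPM in homozygous libraries (log2 fold change -0.59, SE 0.0724, adjusted p = 0.00155). *Nefh*, the heavy neurofilament, measured 3534, 3376 and 3885 CPM in control and 2757, 2285 and 2464 CPM in homozygous libraries (log2 fold change -0.52, SE 0.085, adjusted p = 0.00505), and its call was lost without control replicate 3 (-0.47) or homozygous replicate 2 (-0.46), and with scaling on library totals alone (-0.46). *Nefl* and *Nefm* had log2 fold changes of -0.45 and -0.43 (adjusted p = 0.0046 and 0.00782), under the fold limit, and *Snap25*, a vesicle fusion protein, of -0.41 (adjusted p = 0.00786). *Tubb3*, the beta-tubulin used to stain neurons, did not pass the test (log2 fold change -0.21, adjusted p = 0.0846).

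Genes that mark subtypes of type I spiral ganglion neurons held a larger share of calls than the pan-neuronal genes, a difference that was not tested, with a median nearer to 0. Of 18 tested, 9 passed the adjusted p alone, 7 were called lower (38.9%, against 1.41% of all genes) and 1 higher, with a median of -0.17. The study named *Rxrg*, *Ttn*, *Trim54*, *Calb2* and *Cpne6*, among others, on these same samples, so the count for this list is not independent evidence of its direction. *Rxrg*, a retinoid receptor, measured 24.9, 24 and 26.8 CPM in control and 17.8, 15.1 and 17.4 CPM in homozygous libraries (log2 fold change -0.59, SE 0.0882, adjusted p = 0.00394). *Pcdh20*, a protocadherin, measured 26.2, 21.9 and 27.7 CPM in control and 15, 18.5 and 16.9 CPM in homozygous libraries (log2 fold change -0.59, SE 0.108, adjusted p = 0.00783). *Kcnc2*, a fast delayed rectifier channel, measured 8.9, 8.57 and 8.8 CPM in control and 4.81, 6.11 and 5.31 CPM in homozygous libraries (log2 fold change -0.69, SE 0.129, adjusted p = 0.00833). For each of these genes all homozygous libraries lay below all controls, as held for 17.9% of all genes tested, but none was called lower on the pan-neuronal scale (-0.25, -0.25 and -0.35).

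The remaining subtype genes differed among themselves. *Calb2*, the calcium buffer calretinin, fell (log2 fold change -0.54, SE 0.0746, adjusted p = 0.00292; call lost without homozygous replicate 3 (-0.48), and with scaling on library totals alone (-0.48)), whereas *Calb1*, calbindin, did not pass the test (log2 fold change 0.01, adjusted p = 0.96). *Lypd1* also did not pass (log2 fold change -0.15, adjusted p = 0.176). *Cpne6*, a calcium-dependent membrane-binding copine, went the other way. It measured 56.2, 58.7 and 60.03 CPM in control and 100.3, 91.1 and 98.6 CPM in homozygous libraries (log2 fold change 0.73, SE 0.0617, adjusted p = 0.000392), and it was called higher in each of the 6 fits that left out 1 library. Type II neuron genes gave 1 decrease among 10 tested and a median of 0.00. That gene was *Esrrg*, an orphan nuclear receptor (log2 fold change -0.55, SE 0.1, adjusted p = 0.00784; call lost without control replicate 3 (-0.41), and with scaling on library totals alone (-0.48)). *Th*, which marks type II neurons in the adult ganglion, measured 13.1, 13.8 and 13.1 CPM in control and 13.1, 13.5 and 15.5 CPM in homozygous libraries and did not pass (log2 fold change 0.07, adjusted p = 0.691).

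Most genes of the shared and outer hair cell lists were higher, and inner hair cell genes were mixed. Of 27 genes shared by both kinds of hair cell, 6 were called higher (22.2%, against 1.74% of all genes), none lower, and 21 lay above 0, with a median of 0.41. The study named *Otof*, *Espn*, *Chrna10*, *Fgfr3*, *Sall1*, *Tectb*, *Cldn11* and *Cldn14* as higher in these same samples. Counts for this list and the lists below that hold those genes are therefore not independent evidence of direction. In the homozygous libraries 1, 2 and 3, respectively 13, 18 and 18 of the 27 lay above all controls, where 33.2%, 35.1% and 33.0% of all genes did. *Espn*, the actin bundler of stereocilia, measured 13.6, 11.4 and 13.3 CPM in control and 25.7, 26.5 and 23.7 CPM in homozygous libraries (log2 fold change 0.99, SE 0.0924, adjusted p = 0.000588). *Pcp4*, a calmodulin regulator, measured 35.7, 35.2 and 33.2 CPM in control and 47.1, 48.7 and 58.9 CPM in homozygous libraries (log2 fold change 0.57, SE 0.0879, adjusted p = 0.00436), and its call was lost without homozygous replicate 3 (0.47). *Myo15*, the myosin that carries cargo to stereocilia tips, rose (log2 fold change 0.62, SE 0.144, adjusted p = 0.0204), a call lost without control replicate 2 (0.49), control replicate 3 (0.61), homozygous replicate 2 (0.56) or homozygous replicate 3 (0.58). *Barhl1*, a hair cell homeobox factor, and *Myo1h* were low (at most 3.99 and 8.68 CPM). *Barhl1* rose (log2 fold change 0.92, SE 0.256, adjusted p = 0.0416), a call lost without control replicate 1 (0.94), control replicate 3 (0.69), homozygous replicate 1 (0.95), homozygous replicate 2 (1.01) or homozygous replicate 3 (0.79). *Myo1h* rose (log2 fold change 0.88, SE 0.202, adjusted p = 0.0203), a call lost without control replicate 3 (0.72), homozygous replicate 1 (0.83) or homozygous replicate 2 (0.82), and 25.8% of its exon bases overlap a gene on the other strand. Such overlaps are given because the sources used here do not say whether reads were counted by strand.

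The defining markers of hair cells lay above 0 and were not called. *Myo7a* measured 39.1, 39.9 and 42.2 CPM in control and 41.7, 48.2 and 51.3 CPM in homozygous libraries (log2 fold change 0.22, adjusted p = 0.105), *Pou4f3* 4.69, 2.77 and 4.16 CPM in control and 4.91, 6.25 and 5.77 CPM in homozygous libraries (log2 fold change 0.54, adjusted p = 0.101), and *Myo6* 157, 149 and 144 CPM in control and 170.3, 196 and 181 CPM in homozygous libraries (log2 fold change 0.29, adjusted p = 0.0189). All are markers of hair cell identity, and their direction was unlike that of the neuronal genes. Among 10 inner hair cell genes, 3 rose, 4 lay below 0 and the median was 0.17. In homozygous libraries 1, 2 and 3, respectively 4, 6 and 5 of the 10 lay above all controls and 4, 2 and 2 below. Of all genes, 33.2%, 35.1% and 33.0% lay above all controls and 32.2%, 33.1% and 32.2% below. With the adjusted p alone, 4 of the 10 passed higher and 1 lower. *Otof*, the calcium sensor of glutamate release, measured 87.2, 76.6 and 75.2 CPM in control and 97.3, 114 and 136 CPM in homozygous libraries (log2 fold change 0.54, SE 0.109, adjusted p = 0.0121), and its call was lost without control replicate 3 (0.50) or homozygous replicate 3 (0.40). *Cabp2*, a calcium-binding protein of the inner hair cell synapse, measured 11.3, 7.95 and 6.81 CPM in control and 14.9, 13.6 and 18 CPM in homozygous libraries (log2 fold change 0.83, SE 0.177, adjusted p = 0.0147; call lost without control replicate 3, at 0.68, adjusted p = 0.0507). *Atp2a3*, a calcium pump, rose (log2 fold change 0.54, SE 0.104, adjusted p = 0.0099; call lost without control replicate 1 (0.47) or homozygous replicate 3 (0.44)). *Slc17a8*, the vesicular glutamate transporter VGLUT3, measured 20.6, 22.8 and 23 CPM in control and 24.3, 32.8 and 36.4 CPM in homozygous libraries (log2 fold change 0.49, adjusted p = 0.0336), just under the fold limit.

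Outer hair cell genes gave 2 increases among 11 tested, no decrease and a median of 0.43. In homozygous libraries 1, 2 and 3, respectively 8, 10 and 9 of the 11 lay above all controls, where 33.2%, 35.1% and 33.0% of all genes did. *Ocm*, the calcium buffer oncomodulin of outer hair cells, measured 68.4, 71.2 and 76 CPM in control and 113, 115 and 123 CPM in homozygous libraries (log2 fold change 0.70, SE 0.0631, adjusted p = 0.000547). *Chrna10*, which forms the efferent acetylcholine receptor with *Chrna9*, measured 12.6, 12.3 and 12 CPM in control and 16, 19.3 and 19.8 CPM in homozygous libraries (log2 fold change 0.58, SE 0.101, adjusted p = 0.00692), and 39.0% of its exon bases overlap a gene on the opposite strand. Both were called in each fit that left out 1 library. *Slc26a5*, the motor protein prestin, measured 17.9, 13.8 and 23.9 CPM in control and 20.8, 34.1 and 30.9 CPM in homozygous libraries and did not pass (log2 fold change 0.63, adjusted p = 0.0702), and homozygous replicate 1 lay among the controls. Without homozygous replicates 1 and 2 the list medians stayed at 0.40 for shared hair cell genes and 0.48 for outer hair cell genes.

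Supporting cell genes moved in the same direction as hair cell genes, with 4 called higher and 1 lower among 24 tested and a median of 0.25. *Fgfr3*, the growth factor receptor of pillar and Deiters cells, measured 39.5, 37.8 and 45.3 CPM in control and 63.1, 67.7 and 66.7 CPM in homozygous libraries (log2 fold change 0.69, SE 0.0761, adjusted p = 0.00119), with 13.9% of its exon bases in an overlap on the other strand. *Sall1*, a zinc finger factor, measured 21.7, 22 and 23.1 CPM in control and 30.8, 43.1 and 36.9 CPM in homozygous libraries (log2 fold change 0.73, SE 0.109, adjusted p = 0.00394). *Rorb*, a nuclear receptor, measured 12.1, 13.1 and 14.4 CPM in control and 20.3, 23 and 19.9 CPM in homozygous libraries (log2 fold change 0.67, SE 0.0963, adjusted p = 0.00344). Each homozygous library lay above all controls for these genes, where 15.8% of all genes tested had all homozygous above all control libraries, and all were called in each fit that left out 1 library. *Lfng*, a modifier of Notch, rose by the least amount (log2 fold change 0.50, SE 0.0903, adjusted p = 0.00768), a call lost without control replicate 1 (0.45), control replicate 3 (0.47) or homozygous replicate 2 (0.47), and with DESeq2 (0.50), RLE size factors (0.50) or no filter on low counts (0.50), each just under the fold limit. RLE size factors scale each library by its median ratio to a reference. *Prox1*, a homeobox factor of supporting cells that is also on the list of spiral ganglion factors, fell (log2 fold change -0.59, SE 0.103, adjusted p = 0.00665; call lost without control replicate 3 (-0.50)). *Sox2* measured 34, 32.9 and 36.8 CPM in control and 39.4, 45.2 and 47.8 CPM in homozygous libraries (log2 fold change 0.35, adjusted p = 0.0231), above the controls in each homozygous library but under the fold limit.

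The tectorial membrane was represented by 15 genes tested, of which 14 lay above 0 and 2 rose, with a median of 0.24. *Tectb*, which encodes beta-tectorin, a main noncollagenous protein of the membrane, measured 19.2, 19.3 and 19 CPM in control and 35.1, 42.1 and 39.1 CPM in homozygous libraries (log2 fold change 1.02, SE 0.0808, adjusted p = 0.000303). *Tecta*, which encodes its partner alpha-tectorin, measured 4.97, 2.12 and 2.6 CPM in control and 3.04, 2.4 and 3.46 CPM in homozygous libraries and did not pass (log2 fold change -0.12, adjusted p = 0.824). *Epyc*, the proteoglycan epiphycan, rose (log2 fold change 0.50, SE 0.108, adjusted p = 0.0158), a call lost without control replicate 1 (0.39) or homozygous replicate 3 (0.40), and with DESeq2 (0.50) or no filter on low counts (0.50), both just under the fold limit, and 40.6% of its exon bases overlap a gene on the opposite strand. *Otoa*, the attachment protein otoancorin, did not pass (log2 fold change 0.03, adjusted p = 0.838). The genes that build this membrane therefore did not move by a common amount.

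**Figure D3:**
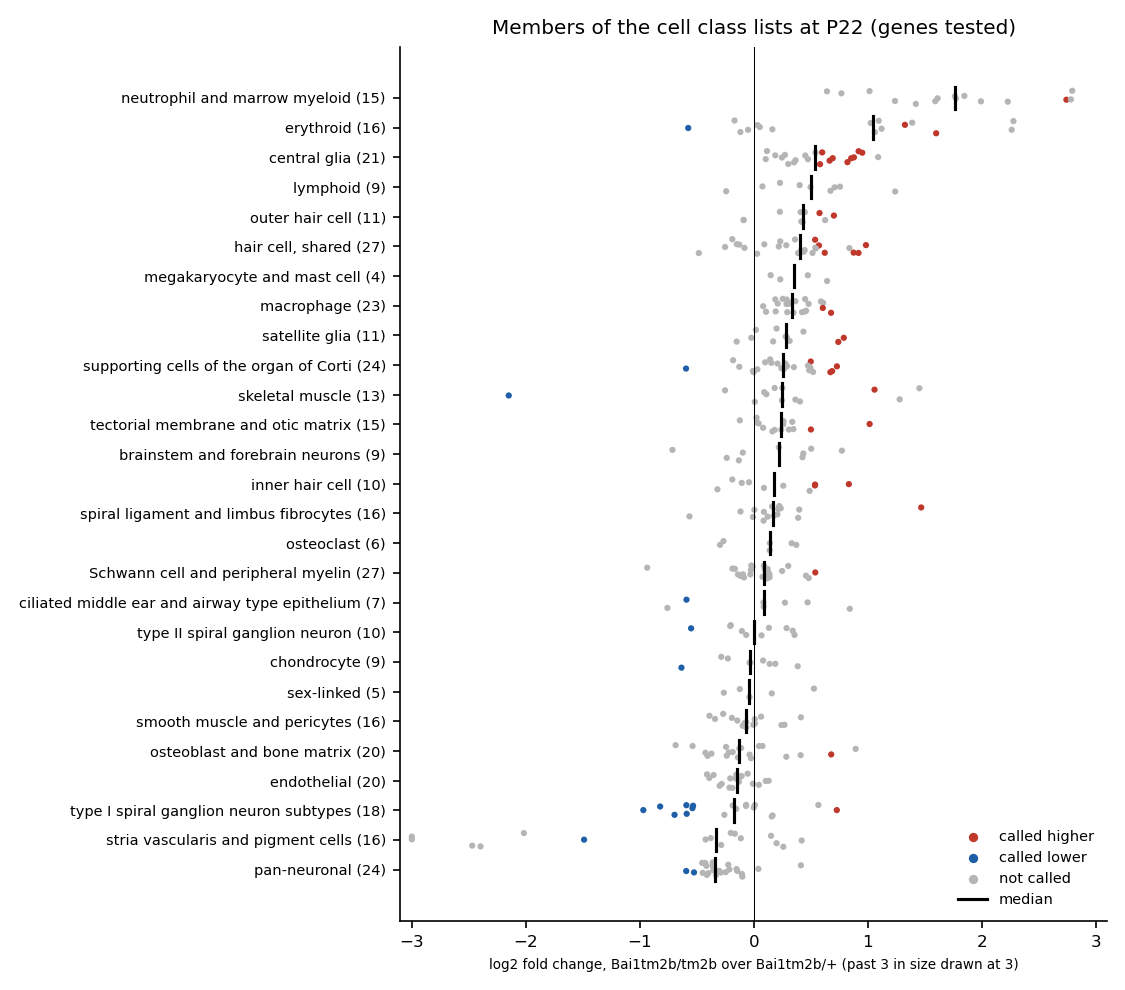
Each point is a gene of 1 of the cell class lists that could be tested, with the number tested in parentheses; the horizontal axis is the log2 fold change of *Bai1tm2b/tm2b* over *Bai1tm2b/+*, black bars are list medians, and values past 3 in size are drawn at 3. Pan-neuronal genes lie to the left of 0 (median -0.34), hair cell genes to the right (0.41 for shared genes), and the widest medians belong to marrow myeloid (1.77) and erythroid (1.04) genes.

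Glia fell into classes that differed. Schwann cell and peripheral myelin genes gave 1 increase among 27 tested and a median of 0.09. *Prx* (log2 fold change -0.10) and *Pmp22* (log2 fold change -0.17), both proteins of peripheral myelin, did not pass. *Mbp*, which is shared by peripheral and central myelin, was the increase (log2 fold change 0.54, SE 0.102, adjusted p = 0.00892; call lost without homozygous replicate 2 (0.44)). Satellite glia genes gave 2 increases among 11, *Fabp7* (log2 fold change 0.74, SE 0.125, adjusted p = 0.0056) and *Gfap* (log2 fold change 0.79, SE 0.155, adjusted p = 0.0109). *Fabp7*, a lipid carrier of glia, measured 23.4, 24.3 and 23.8 CPM in control and 32.5, 48.9 and 38.2 CPM in homozygous libraries, and *Gfap*, an intermediate filament, 233, 322 and 236 CPM in control and 412, 574 and 382 CPM in homozygous libraries. Central glia also express *Gfap*, so it is not particular to the ganglion.

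Genes of central glia, mostly of oligodendrocytes, were higher in the homozygous group but not by the same amount in each library. Of 21 tested, 9 rose (42.9%) and all 21 lay above 0, with a median of 0.54. *Mobp*, a myelin protein of oligodendrocytes, measured 171, 171 and 200.2 CPM in control and 359.9, 425 and 242 CPM in homozygous libraries (log2 fold change 0.92, SE 0.161, adjusted p = 0.00689). *Prr18*, which is on no list but was among the 10 largest increases over genes at 10 CPM or more, measured 15, 16.6 and 16.7 CPM in control and 36.5, 44.4 and 26.5 CPM in homozygous libraries (log2 fold change 1.15, SE 0.154, adjusted p = 0.00251). *Hapln2*, a link protein of the nodes of Ranvier, measured 23.3, 23 and 25.4 CPM in control and 44.2, 49.5 and 33.1 CPM in homozygous libraries (log2 fold change 0.82, SE 0.127, adjusted p = 0.00439). In each case homozygous replicate 3 was the lowest of its group, although above all controls. In homozygous replicates 1, 2 and 3, respectively 20, 19 and 12 of the 21 lay above all controls, where 33.2%, 35.1% and 33.0% of all genes did. Without homozygous replicates 1 and 2 the median was 0.14. The oligodendrocyte transcription factors *Olig1* and *Olig2* measured 30.5, 36.5 and 33.5 CPM in control and 58, 67.5 and 37.1 CPM in homozygous libraries (*Olig1*) and 5.41, 7.21 and 6.55 CPM in control and 14, 13.6 and 7.09 CPM in homozygous libraries (*Olig2*). The calls of *Olig1* (log2 fold change 0.69, SE 0.173, adjusted p = 0.0283) and *Olig2* (log2 fold change 0.86, SE 0.229, adjusted p = 0.0362) were lost without control replicate 1 (0.63), control replicate 3 (0.69), homozygous replicate 1 (0.64) or homozygous replicate 2 (0.51), and without control replicate 1 (0.75), control replicate 3 (0.87), homozygous replicate 1 (0.70) or homozygous replicate 2 (0.72), respectively. The other members called were *Mog* (log2 fold change 0.67, SE 0.135, adjusted p = 0.0123), *Tspan2* (log2 fold change 0.88, SE 0.185, adjusted p = 0.0141), *Ermn* (log2 fold change 0.58, SE 0.146, adjusted p = 0.029), *Anln* (log2 fold change 0.60, SE 0.131, adjusted p = 0.0165) and *Gpr17* (log2 fold change 0.95, SE 0.211, adjusted p = 0.0176). Their calls were lost without control replicate 1 (0.63), control replicate 3 (0.64) or homozygous replicate 2 (0.56) for *Mog*, without control replicate 1 (0.85) for *Tspan2*, without control replicate 1 (0.55), control replicate 3 (0.59), homozygous replicate 1 (0.61) or homozygous replicate 2 (0.37) for *Ermn*, without control replicate 1 (0.56) or homozygous replicate 2 (0.43) for *Anln* and without control replicate 1 (0.95), control replicate 3 (0.92) or homozygous replicate 2 (0.68) for *Gpr17*. The amount of central nerve stump in each dissection was not measured, and its part in these values was not tested. Markers of brain neurons gave no call among 9 tested by edgeR (0 at an unadjusted p under 0.05 and 0 by DESeq2), with a summed level of 16 to 21 CPM in controls and 16 to 24 CPM in homozygous libraries.

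Immune and marrow genes split the homozygous libraries in the same way. Neutrophil and marrow myeloid genes had the largest list median, 1.77, with all 15 tested above 0, but only *Mmp8* was called. *Mmp8*, a neutrophil collagenase, was at most 0.712 CPM, and its call (log2 fold change 2.74, SE 0.453, adjusted p = 0.00553) was lost in each fit that left out 1 library (2.65 to 2.86), always because the SE passed its limit, and with no filter on low counts (2.74). DESeq2 gave this gene no adjusted p. The summed level of the list was 24, 10 and 11 CPM in controls and 75, 63 and 10 CPM in homozygous libraries, and without homozygous replicates 1 and 2 the list median was -0.57. *S100a9* had a log2 fold change of 2.23 (adjusted p = 0.0363, SE above its limit), with 14.1, 13.6 and 1.80 CPM in the homozygous libraries, so its high values were those of the same replicates.

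Erythroid genes gave 2 increases and 1 decrease among 16, with a median of 1.04 that became -0.26 without homozygous replicates 1 and 2. *Slc4a1*, the band 3 anion exchanger of red cells, measured 4.94, 3.65 and 3.26 CPM in control and 18.7, 13.8 and 3.35 CPM in homozygous libraries, and its call (log2 fold change 1.60, SE 0.463, adjusted p = 0.0477) was lost without control replicate 1 (1.79), control replicate 2 (1.55), control replicate 3 (1.48), homozygous replicate 1 (1.12) or homozygous replicate 2 (1.49), and with DESeq2 (1.60). *Epor*, the erythropoietin receptor, measured 0.416, 0.566 and 0.318 CPM in control and 1.4, 1.18 and 0.686 CPM in homozygous libraries, and its call (log2 fold change 1.33, SE 0.385, adjusted p = 0.0481) was lost without control replicate 1 (1.30), control replicate 3 (1.14), homozygous replicate 1 (1.11) or homozygous replicate 2 (1.27), and with no filter on low counts (1.32). The hemoglobin genes *Hba-a1* and *Hba-a2*, a nearly identical pair whose counts are uncertain, did not pass (log2 fold changes 0.03 and -0.05). *Tfrc*, the transferrin receptor, went down in all homozygous libraries, with 537, 489 and 528 CPM in control and 353, 370.1 and 320.4 CPM in homozygous libraries (log2 fold change -0.57, SE 0.0674, adjusted p = 0.00132). The gene takes up iron in many cell types, neurons included, and was called in each fit that left out 1 library.

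Macrophage genes were higher, but less so in homozygous replicate 3. All 23 tested lay above 0, with a median of 0.34 and 2 called. In homozygous libraries 1, 2 and 3, respectively 20, 22 and 11 of the 23 lay above all controls, where 33.2%, 35.1% and 33.0% of all genes did. *Lyz2*, a lysozyme of macrophages and neutrophils, measured 24.1, 23.9 and 19.9 CPM in control and 35.9, 35.4 and 32 CPM in homozygous libraries (log2 fold change 0.61, SE 0.0899, adjusted p = 0.00389). *Trem2*, a lipid receptor of macrophages and microglia, measured 3.8, 4.19 and 3.68 CPM in control and 6.7, 6.01 and 5.97 CPM in homozygous libraries (log2 fold change 0.68, SE 0.139, adjusted p = 0.0128; call lost without control replicate 1, at 0.66, adjusted p = 0.0577). *Csf1r*, the receptor that maintains macrophages, did not pass (log2 fold change 0.19, adjusted p = 0.238), and *Cx3cr1* measured 19.4, 19.4 and 17.4 CPM in control and 24.6, 32.8 and 21 CPM in homozygous libraries (log2 fold change 0.48, adjusted p = 0.049). The median was 0.12 without homozygous replicates 1 and 2. Lymphoid genes gave no call among 9 by edgeR (0 at an unadjusted p under 0.05, 0 by DESeq2, median 0.50), and megakaryocyte and mast cell genes none among 4 (2 at an unadjusted p under 0.05, 0 by DESeq2, median 0.35).

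**Figure D4:**
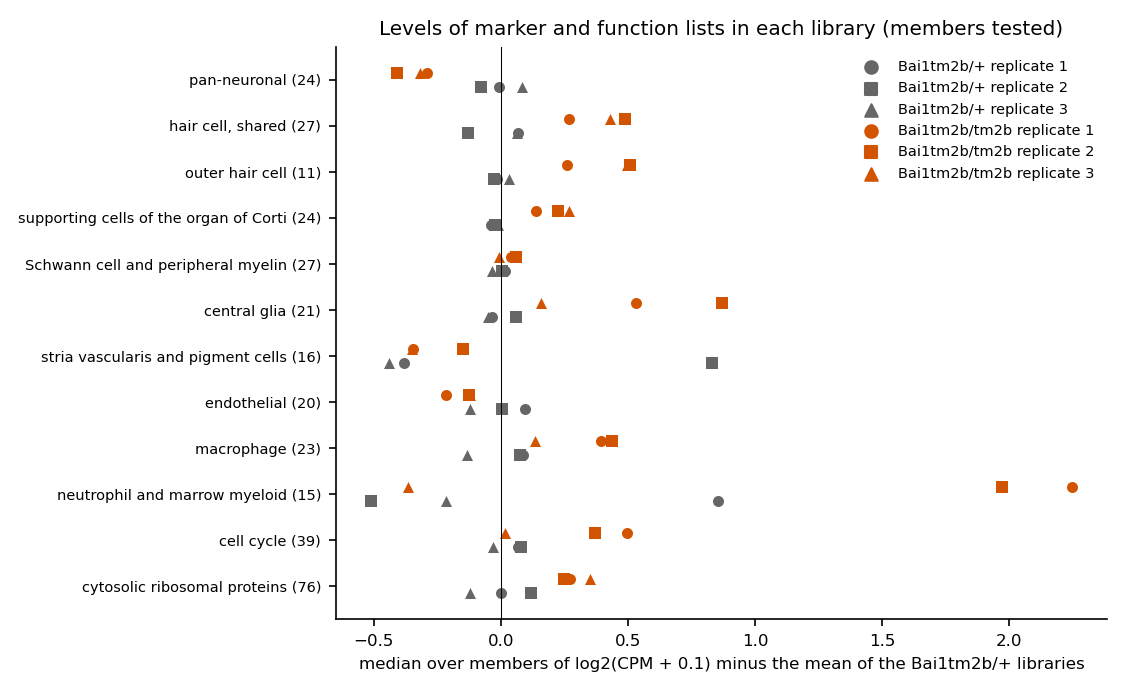
Each symbol is 1 library, with *Bai1tm2b/+* in grey and *Bai1tm2b/tm2b* in orange and circles, squares and triangles for replicates 1, 2 and 3; the horizontal axis is the median over the tested members of each list of log2(CPM + 0.1), minus the mean of the *Bai1tm2b/+* libraries. Genotypes separate for pan-neuronal, shared and outer hair cell and ribosomal protein genes, whereas homozygous replicate 3 lies near the controls for neutrophil, cell cycle and central glia genes and *Bai1tm2b/+* replicate 2 stands apart for stria vascularis genes.

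The lateral wall, vessels and bone changed in few genes. Fibrocyte genes gave 1 increase among 16 and a median of 0.17. It was *Slc4a11*, a borate and proton transporter of spiral ligament fibrocytes, which measured 54, 42.1 and 36.7 CPM in control and 169, 161 and 37.8 CPM in homozygous libraries. The call (log2 fold change 1.47, SE 0.415, adjusted p = 0.0438) was lost without control replicate 1 (1.64), control replicate 2 (1.43), control replicate 3 (1.35), homozygous replicate 1 (1.17) or homozygous replicate 2 (1.23), and with DESeq2 (1.47). *Coch* and *Otos*, which define fibrocytes, did not pass (log2 fold changes 0.16 and 0.12). *Slc4a10*, a bicarbonate transporter, showed the pattern of *Slc4a11*, with 31.4, 33.4 and 39.97 CPM in control and 81.6, 87 and 37.5 CPM in homozygous libraries, and its call (log2 fold change 0.98, SE 0.245, adjusted p = 0.0291) was lost without control replicate 1 (0.90), control replicate 3 (1.08), homozygous replicate 1 (0.84) or homozygous replicate 2 (0.77), and with DESeq2 (0.97). Stria vascularis and pigment genes had a median of -0.33 over 16 tested, with summed levels of 914, 2107 and 927 CPM in controls and 965, 1129 and 1000 CPM in homozygous libraries, so the high value was control replicate 2.

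Endothelial genes gave no call among 20 tested by edgeR, although 17 lay below 0, 4 had an unadjusted p under 0.05 and 2 passed the adjusted p alone, and DESeq2 called 0. Their median was -0.15, and 0.18 when scaled on the pan-neuronal genes. *Pecam1*, an adhesion protein of endothelium, measured 37.6, 34.5 and 33 CPM in control and 25.8, 28.3 and 28.4 CPM in homozygous libraries (log2 fold change -0.35, adjusted p = 0.016), and *Cdh5*, VE-cadherin, did not pass (log2 fold change 0.11, adjusted p = 0.425). Smooth muscle and pericyte genes gave no call among 16 by edgeR (5 at an unadjusted p under 0.05, 0 by DESeq2, median -0.07, and 0.27 on the pan-neuronal scale). Osteoblast genes gave 1 increase among 20 (median -0.13, and 0.20 on the pan-neuronal scale), *Omd*, a proteoglycan of mineralized matrix, with 4.49, 4.27 and 4.96 CPM in control and 7.36, 7.67 and 6.96 CPM in homozygous libraries (log2 fold change 0.68, SE 0.13, adjusted p = 0.00953). Osteoclast genes gave none among 6 by edgeR (1 at an unadjusted p under 0.05, 0 by DESeq2, median 0.14), and chondrocyte genes 1 decrease among 9 (median -0.03, and 0.29 on the pan-neuronal scale). That gene was *Hapln1*, a link protein of hyaluronan matrix in cartilage and in perineuronal nets, at 81.8, 68.7 and 84.7 CPM in control and 47.5, 52.7 and 51.4 CPM in homozygous libraries (log2 fold change -0.63, SE 0.0832, adjusted p = 0.00238), while *Acan*, its cartilage partner, did not pass (log2 fold change -0.03). Ciliated epithelium genes gave 1 decrease among 7 (median 0.09), *Foxj1*, the factor that drives motile cilia, at 54.7, 47.6 and 49.2 CPM in control and 35.3, 32 and 33.3 CPM in homozygous libraries (log2 fold change -0.59, SE 0.0743, adjusted p = 0.00186), while *Tekt1*, a ciliary tektin, stayed under 2 CPM in all libraries and did not pass (log2 fold change 0.09).

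The AMPA receptor genes, to which the study's question leads, gave few calls. Of 23 subunits and auxiliary partners tested, 1 was called lower, none higher, and the median was 0.00. With the adjusted p alone, 5 of the 23 passed, all lower, where 7.28% of all genes passed lower. The decrease was *Cacng2*, which encodes stargazin, the auxiliary subunit that brings AMPA receptors to the postsynaptic density. It measured 32.6, 32.8 and 39.9 CPM in control and 23.3, 22.3 and 21.1 CPM in homozygous libraries (log2 fold change -0.66, SE 0.0916, adjusted p = 0.00303). All homozygous libraries lay below all controls, as held for 17.9% of all genes tested. The study listed *Cacng2* as lower in these same samples, so its call is not independent evidence. The pore-forming subunits were lower by less than the fold limit. *Gria2* measured 32, 28 and 31 CPM in control and 24.3, 25.9 and 23.9 CPM in homozygous libraries (log2 fold change -0.30, adjusted p = 0.0329), *Gria3* 102, 92.6 and 116 CPM in control and 78.8, 79.9 and 83.5 CPM in homozygous libraries (log2 fold change -0.36, adjusted p = 0.0167) and *Gria4* 105, 97.3 and 116 CPM in control and 87.8, 87.8 and 89.96 CPM in homozygous libraries (log2 fold change -0.26, adjusted p = 0.0352). On the pan-neuronal scale *Cacng2* was at -0.32 and *Gria2*, *Gria3* and *Gria4* at 0.04, -0.02 and 0.08. Other glutamate receptors gave no call among 18 by edgeR (5 at an unadjusted p under 0.05 and 1 call, higher, by DESeq2, median -0.09, and 0.25 on the pan-neuronal scale), with *Grin1* of the NMDA receptor at -0.21 (adjusted p = 0.0821) and *Grm7* at -0.20 (adjusted p = 0.122). With the adjusted p alone, 1 of those 18 passed, lower.

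Postsynaptic scaffold and adhesion genes gave 3 decreases among 34 (8.82%), with a median of -0.16, and 0.18 on the pan-neuronal scale. *Lrrtm3*, a leucine-rich organizer of excitatory synapses, measured 37.3, 40.2 and 43.2 CPM in control and 22.4, 27.9 and 28.4 CPM in homozygous libraries (log2 fold change -0.62, SE 0.098, adjusted p = 0.00482). *Dlgap3*, a scaffold that links PSD-95 to SHANK, measured 51.6, 49.96 and 56.9 CPM in control and 39.1, 30.3 and 34.9 CPM in homozygous libraries (log2 fold change -0.61, SE 0.0936, adjusted p = 0.00455). *Nrxn3*, a neurexin, measured 4.91, 3.59 and 4.37 CPM in control and 2.55, 2.02 and 2.46 CPM in homozygous libraries (log2 fold change -0.87, SE 0.19, adjusted p = 0.0162), a call lost without control replicate 1 (-0.77), control replicate 3 (-0.86) or homozygous replicate 2 (-0.77). *Dlg4*, which encodes PSD-95, did not pass (log2 fold change -0.16, adjusted p = 0.098), and *Shank1* and *Homer1* had log2 fold changes of -0.22 and -0.12 (adjusted p = 0.0401 and 0.418).

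Vesicle and release genes gave 5 decreases among 44 (11.4%), and 20 passed the adjusted p alone, all lower. The median was -0.28, which became 0.07 on the pan-neuronal scale. The study listed *Rims1*, *Syt1*, *Syt2* and *Sv2c*, among others, as lower in these same samples, so this count is not independent evidence. *Rims1*, an active zone scaffold, measured 16, 14 and 18.3 CPM in control and 9.3, 10.9 and 10.1 CPM in homozygous libraries (log2 fold change -0.67, SE 0.118, adjusted p = 0.00684). *Syt2*, the fast calcium sensor, fell (log2 fold change -0.53, SE 0.0812, adjusted p = 0.00417; call lost without control replicate 3 (-0.44), and with scaling on library totals alone (-0.47)). *Syt1*, its relative, fell (log2 fold change -0.58, SE 0.152, adjusted p = 0.0328), a call lost without control replicate 1 (-0.49), control replicate 3 (-0.56), homozygous replicate 1 (-0.63), homozygous replicate 2 (-0.55) or homozygous replicate 3 (-0.56). *Slc17a7*, the vesicular transporter VGLUT1, measured 1108, 1069 and 1152 CPM in control and 832, 757 and 818 CPM in homozygous libraries (log2 fold change -0.47, adjusted p = 0.00246). It lay below all controls in each homozygous library, as held for 17.9% of all genes tested, but was under the fold limit. *Sv2c*, described above, was the member of this group still called lower on the pan-neuronal scale.

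Channels of the axon and node followed the neuronal genes. Voltage-gated sodium channel and node genes gave 3 decreases among 20 (median -0.19, and 0.15 on the pan-neuronal scale). *Scn8a*, the sodium channel of mature nodes, measured 393, 358 and 444 CPM in control and 257, 275 and 267 CPM in homozygous libraries (log2 fold change -0.58, SE 0.0765, adjusted p = 0.00244; call lost without control replicate 3 (-0.49)). *Scn4b*, an auxiliary subunit, fell (log2 fold change -0.53, SE 0.073, adjusted p = 0.00291; call lost without control replicate 3 (-0.46), and with scaling on library totals alone (-0.47)), as did *Ank2*, an anchoring ankyrin (log2 fold change -0.54, SE 0.0726, adjusted p = 0.00255; call lost without control replicate 3 (-0.47), and with scaling on library totals alone (-0.48)). *Scn1a* did not pass (log2 fold change -0.24, adjusted p = 0.0805). Among 16 calcium channel genes, 1 fell (median -0.15, and 0.19 on the pan-neuronal scale). It was *Cacna1h*, a low-threshold T-type channel, at 10.8, 10.6 and 11.4 CPM in control and 7.29, 5.89 and 6.43 CPM in homozygous libraries (log2 fold change -0.74, SE 0.119, adjusted p = 0.00492), while *Cacna1a* had a log2 fold change of -0.24 (adjusted p = 0.0501).

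Potassium channel symbols and HCN channels were the largest group of channels, with 82 tested, 10 called lower (12.2%) and 2 higher, and a median of -0.13, and 0.20 on the pan-neuronal scale. The study listed *Kcns3*, *Kcnj3*, *Kcnn1*, *Kcnk10* and *Kcnq5*, among others, as lower in these same samples, so this count is not independent evidence. *Kcns3*, a modifier subunit, measured 35.5, 35.8 and 36.9 CPM in control and 19.5, 20.1 and 22.7 CPM in homozygous libraries (log2 fold change -0.80, SE 0.0773, adjusted p = 0.000602). *Kcnj3*, the GIRK1 subunit opened by G proteins, measured 20.6, 20.5 and 24 CPM in control and 13.2, 13.9 and 15.4 CPM in homozygous libraries (log2 fold change -0.61, SE 0.0963, adjusted p = 0.00474), with 31.1% of its exon bases in an overlap on the opposite strand. *Kcnn1*, a small conductance calcium-activated channel, measured 18.7, 18.8 and 20.4 CPM in control and 14.3, 11.9 and 12.4 CPM in homozygous libraries (log2 fold change -0.58, SE 0.0955, adjusted p = 0.00531). Those channels were called in each fit that left out 1 library, but not on the pan-neuronal scale. *Kcnk10*, a leak channel of the K2P family, measured 3.52, 3.54 and 4.61 CPM in control and 1.69, 2.24 and 1.83 CPM in homozygous libraries (log2 fold change -1.02, SE 0.202, adjusted p = 0.0113; call lost without control replicate 3, at -0.88, adjusted p = 0.0509). *Kcnq5*, a subunit of the M current, measured 2.75, 1.24 and 2.07 CPM in control and 0.785, 0.649 and 0.711 CPM in homozygous libraries (log2 fold change -1.49, SE 0.324, adjusted p = 0.016), a call lost without control replicate 1 (-1.21), control replicate 3 (-1.48) or homozygous replicate 2 (-1.42). Both of these last genes were also called lower on the pan-neuronal scale.

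The other potassium channel calls were less stable or concerned genes that are no channels. *Kcnip3*, a channel-interacting calcium sensor, fell (log2 fold change -0.59, SE 0.0945, adjusted p = 0.00494; call lost without control replicate 3 (-0.48)), whereas *Kcnip2*, its relative, rose, with 37.7, 38.1 and 38.9 CPM in control and 61.6, 49.9 and 59.3 CPM in homozygous libraries (log2 fold change 0.58, SE 0.0813, adjusted p = 0.00322). *Kcnh5* (log2 fold change -0.69, SE 0.185, adjusted p = 0.0367) lost its call without control replicate 1 (-0.66), control replicate 3 (-0.59), homozygous replicate 1 (-0.53) or homozygous replicate 3 (-0.65), and with scaling on library totals alone (-0.62). *Kcnj14* (log2 fold change -0.61, SE 0.157, adjusted p = 0.031) lost its call without control replicate 1 (-0.63), control replicate 3 (-0.54), homozygous replicate 2 (-0.63) or homozygous replicate 3 (-0.51). *Kcnk12* (log2 fold change -0.87, SE 0.231, adjusted p = 0.0348) lost its call in each of the 6 fits that left out 1 library, with values from -0.97 to -0.79. *Kcnq1ot1* is a noncoding RNA antisense to *Kcnq1* and not a channel, and its rise (log2 fold change 0.52, SE 0.138, adjusted p = 0.0352) was lost without control replicate 1 (0.47), control replicate 2 (0.50), control replicate 3 (0.59), homozygous replicate 1 (0.51) or homozygous replicate 2 (0.43). The abundant channel *Kcna1* had a log2 fold change of -0.21 (adjusted p = 0.118).

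Receptors for acetylcholine, GABA and glycine, with the enzymes of these transmitters, gave 2 decreases and 1 increase among 31 (median -0.15, and 0.19 on the pan-neuronal scale). The decreases were *Chrna4* and *Ache*, both still called on the pan-neuronal scale, and the increase was *Chrna10* of hair cells. The study listed these genes as changed in these same samples, so this count is not independent evidence. *Chrnb2*, the usual partner subunit of *Chrna4*, measured 95, 88.4 and 98.9 CPM in control and 74.1, 71.9 and 77.5 CPM in homozygous libraries (log2 fold change -0.34, adjusted p = 0.00856), under the fold limit. Its value on the pan-neuronal scale was 0.00, against -0.71 for *Chrna4*. *Gls2*, a glutaminase that makes glutamate, was the 1 decrease among 25 genes of glutamate metabolism (median 0.05) and measured 27, 26.8 and 27.6 CPM in control and 17.9, 14.7 and 16.5 CPM in homozygous libraries (log2 fold change -0.73, SE 0.0866, adjusted p = 0.00132). It too was listed by the study as lower in these same samples. *Aspa*, an oligodendrocyte enzyme that splits N-acetylaspartate, was the 1 increase, at 18.5, 18.4 and 18.9 CPM in control and 29, 30.2 and 27 CPM in homozygous libraries (log2 fold change 0.63, SE 0.074, adjusted p = 0.00132), with homozygous replicate 3 above the controls like the rest of its group.

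G protein subunits and RGS proteins gave 2 decreases among 45 and a median of 0.01. *Rgs8*, which speeds the shutdown of G protein signals, was low but far apart between groups, with 1.11, 1.24 and 1.01 CPM in control and 0.319, 0.337 and 0.279 CPM in homozygous libraries (log2 fold change -1.83, SE 0.325, adjusted p = 0.00731), and stayed called on the pan-neuronal scale. *Rgs7* fell (log2 fold change -0.59, SE 0.116, adjusted p = 0.0111; call lost without homozygous replicate 2 (-0.48)). *Gnas*, the stimulatory alpha subunit, did not pass (log2 fold change -0.13, adjusted p = 0.239). Cyclic nucleotide enzymes gave no call among 41 by edgeR (17 at an unadjusted p under 0.05, 0 by DESeq2, median 0.02), although 2 passed the adjusted p alone higher and 7 lower. Sodium and calcium pumps and exchangers gave 1 increase among 25, *Atp2a3*, with a median of -0.15, and 0.19 on the pan-neuronal scale. Calcium buffers and calmodulin kinases gave 1 increase and 1 decrease among 32 (median -0.03, and 0.31 on the pan-neuronal scale), which were *Ocm* and *Calb2*.

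The relatives and partners of BAI1 showed little change. Among 24 adhesion G protein-coupled receptors, *Adgrb1* was the 1 call, and the median was 0.03. *Adgrl1*, a latrophilin, measured 296, 277 and 316 CPM in control and 236, 239.6 and 251 CPM in homozygous libraries (log2 fold change -0.29, adjusted p = 0.0148), under the fold limit. Of 17 signalling partners of BAI1, 1 was called and the median was 0.00. *Elmo1*, *Dock1* and *Tiam1*, which act on the small GTPase Rac, did not pass (log2 fold changes -0.18, 0.00 and -0.27; adjusted p = 0.0892, 0.999 and 0.0972). The call was *Arc*, an activity-induced gene that also regulates AMPA receptor uptake, at 8.02, 8.49 and 9.14 CPM in control and 5.01, 7.09 and 5.41 CPM in homozygous libraries. Its call (log2 fold change -0.55, SE 0.15, adjusted p = 0.0386) was lost without control replicate 1 (-0.60), control replicate 2 (-0.56), control replicate 3 (-0.50), homozygous replicate 1 (-0.45) or homozygous replicate 3 (-0.50), and with scaling on library totals alone (-0.49). Activity-induced genes as a group gave 2 decreases among 29 (median -0.12, and 0.22 on the pan-neuronal scale), *Arc* and *Dusp1*, a phosphatase of MAP kinases. The call of *Dusp1* (log2 fold change -0.61, SE 0.157, adjusted p = 0.0312) was lost without control replicate 1 (-0.65), control replicate 2 (-0.42), homozygous replicate 1 (-0.49), homozygous replicate 2 (-0.71) or homozygous replicate 3 (-0.65), and with scaling on library totals alone (-0.55). *Fos* and *Egr1*, the classic immediate early genes, did not pass (log2 fold changes -0.13 and 0.00; adjusted p = 0.729 and 0.991). Axon injury genes gave no call among 14 by edgeR (8 at an unadjusted p under 0.05, 0 by DESeq2, median 0.37), with 3 past the adjusted p alone, all higher, of which *Atf3* was 1 (9.32, 8.63 and 8.9 CPM in control and 12.6, 10.7 and 11.4 CPM in homozygous libraries; log2 fold change 0.37, adjusted p = 0.049). *Sprr1a*, another injury gene, stayed under 1 CPM in all libraries.

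Transcription factors of the spiral ganglion gave 3 decreases among 25 (*Prox1*, *Rxrg* and *Esrrg*), with a median of -0.07, and 0.27 on the pan-neuronal scale. *Isl1* (log2 fold change -0.15, adjusted p = 0.138) did not pass, and *Gata3* measured 78.8, 88.2 and 93.4 CPM in control and 97.7, 113 and 123 CPM in homozygous libraries (log2 fold change 0.36, adjusted p = 0.0295). Thyroid hormone and other nuclear receptors gave 3 decreases and 1 increase among 30, with a median of 0.00, which were *Rxrg*, *Esrrb*, *Esrrg* and *Rorb*. *Thra* and *Thrb*, the thyroid hormone receptors needed for hearing onset, did not pass (log2 fold changes 0.07 and 0.11).

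Guidance and trophic genes moved in few members. Axon guidance genes gave 3 decreases among 70 and a median of 0.00. Beside *Sema3e*, they were *Slit3*, a secreted ligand of Robo receptors, at 29.5, 29.4 and 29.7 CPM in control and 18.7, 20.1 and 18 CPM in homozygous libraries (log2 fold change -0.64, SE 0.0731, adjusted p = 0.00124), and *Sema3d* (log2 fold change -0.54, SE 0.108, adjusted p = 0.0118; call lost without control replicate 3 (-0.45) or homozygous replicate 1 (-0.48), and with scaling on library totals alone (-0.48)). *Plxna1*, a semaphorin receptor, had a log2 fold change of -0.30 (adjusted p = 0.0272). Among 29 neurotrophin and growth factor genes, 2 rose and 1 fell (median 0.11). The decrease was *Nrg1*, the axonal signal to Schwann cells, at 30.5, 27.7 and 34.9 CPM in control and 20.5, 19.7 and 21.5 CPM in homozygous libraries (log2 fold change -0.59, SE 0.0921, adjusted p = 0.00463; call lost without control replicate 3 (-0.50)). *Artn*, a ligand of the GDNF family, rose (log2 fold change 1.11, SE 0.26, adjusted p = 0.0219), a call lost without control replicate 1 (1.04), control replicate 3 (0.98), homozygous replicate 2 (1.12) or homozygous replicate 3 (1.03), and *Fgfr3* was the other increase. *Bdnf* and *Ntf3*, the neurotrophins of the cochlea, did not pass (log2 fold changes 0.28 and 0.52). Clustered protocadherins gave no call among 57 by edgeR (7 at an unadjusted p under 0.05 and 1 call, higher, by DESeq2, median -0.08, and 0.25 on the pan-neuronal scale), with 1 past the adjusted p alone.

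The axonal cytoskeleton was lower and the sarcomere proteins split. Among 36 cytoskeleton and transport genes, 2 were called lower (*Nefh* and *Ina*), 20 passed the adjusted p alone lower, and the median was -0.28, and 0.06 on the pan-neuronal scale. *Nefl*, *Nefm*, *Nefh* and *Ina* are also among the genes that set this scale, so the shift is partly by construction. The study listed *Nefh* as lower in these same samples, so this count is not independent evidence. Sarcomere proteins gave 6 decreases (35.3%) and 1 increase among 17, with a median of 0.11. The study picked *Ttn* and *Trim54*, among others, from these samples, so this count is no independent evidence either. *Mybpc2*, the fast myosin-binding protein C, measured 3.61, 3.59 and 2.78 CPM in control and 0.785, 0.793 and 0.661 CPM in homozygous libraries (log2 fold change -2.15, SE 0.232, adjusted p = 0.00106). *Ttn*, the giant titin, measured 13.9, 13.8 and 16.2 CPM in control and 5.96, 8.65 and 7.85 CPM in homozygous libraries (log2 fold change -0.97, SE 0.142, adjusted p = 0.00375). *Ldb3*, a Z-disc protein, measured 21.1, 18.5 and 24.3 CPM in control and 12.4, 9.69 and 11.2 CPM in homozygous libraries (log2 fold change -0.94, SE 0.123, adjusted p = 0.00229). *Myh7b*, a slow-type myosin chain, measured 29.7, 27.6 and 24.4 CPM in control and 18.8, 14.1 and 19.1 CPM in homozygous libraries (log2 fold change -0.65, SE 0.121, adjusted p = 0.00851). *Trim54*, a ubiquitin ligase of the Z-disc, measured 14.5, 12.1 and 11.2 CPM in control and 8.59, 6.54 and 6.3 CPM in homozygous libraries (log2 fold change -0.82, SE 0.148, adjusted p = 0.00768), with 26.6% of its exon bases in an overlap on the opposite strand.

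Skeletal muscle markers differed among themselves. Of 13 tested, 11 lay above 0 (median 0.25), with *Mybpc2* the 1 decrease and *Casq1* the 1 increase. Their summed level was 709 to 760.2 CPM in controls and 596 to 667 CPM in homozygous libraries, lower without overlap. Most of that sum was *Pvalb*, a calcium buffer that neurons and hair cells also express, at 693, 687 and 647 CPM in control and 593, 529.6 and 579.7 CPM in homozygous libraries (log2 fold change -0.25, adjusted p = 0.0279, under the fold limit). *Casq1*, the calcium store protein calsequestrin, measured 7.21, 8.85 and 7.87 CPM in control and 17, 18.5 and 14.4 CPM in homozygous libraries (log2 fold change 1.06, SE 0.124, adjusted p = 0.00132). *Acta1*, *Mylpf* and *Tnni2*, which define skeletal muscle, were all under 1 CPM in every library and did not pass (adjusted p = 0.639, 0.548 and 0.0996). *Actn2*, the increase among the sarcomere genes, measured 3.13, 1.98 and 2.6 CPM in control and 4.03, 4.18 and 4.19 CPM in homozygous libraries, and its call (log2 fold change 0.68, SE 0.194, adjusted p = 0.0448) was lost in each fit that left out 1 library (0.53 to 0.85).

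Stereocilia and mechanotransduction genes gave 3 increases among 34 (*Espn*, *Myo15* and *Myo1h*), 10 past the adjusted p alone, all higher, and a median of 0.32. The median was 0.33 without homozygous replicates 1 and 2. *Cdh23*, a tip link cadherin, measured 23.5, 22.4 and 26.9 CPM in control and 31.3, 33.9 and 31.4 CPM in homozygous libraries (log2 fold change 0.41, adjusted p = 0.0129), and *Tmc1*, the pore of the transduction channel, 7.66, 7.16 and 9.01 CPM in control and 9.89, 11.3 and 10.6 CPM in homozygous libraries (log2 fold change 0.41, adjusted p = 0.0503). Gap and tight junction genes gave 2 increases and 1 decrease among 33 (median 0.19). *Cldn14*, a tight junction claudin of hair and supporting cells, measured 7.3, 9.53 and 8.4 CPM in control and 14, 14.6 and 14.1 CPM in homozygous libraries (log2 fold change 0.76, SE 0.115, adjusted p = 0.00406). *Cldn11*, a claudin of strial basal cells and of oligodendrocyte myelin, measured 242, 261 and 236 CPM in control and 392, 423 and 288 CPM in homozygous libraries (log2 fold change 0.58, SE 0.116, adjusted p = 0.0118), a call lost without homozygous replicate 2 (0.47). The decrease was *Gjd2*, the neuronal connexin 36, at 48.8, 48.7 and 53.2 CPM in control and 32.9, 38.7 and 34.4 CPM in homozygous libraries (log2 fold change -0.51, SE 0.0769, adjusted p = 0.0041), a call lost without control replicate 3 (-0.47), homozygous replicate 1 (-0.46) or homozygous replicate 3 (-0.49), and with scaling on library totals alone (-0.44). *Gjb2* and *Gjb6*, the main cochlear connexins, had log2 fold changes of 0.21 (adjusted p = 0.132) and 0.27 (adjusted p = 0.0411).

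Notch and Wnt signalling gave 2 increases among 62 and a median of 0.09, *Lfng* and *Wnt6*, a secreted Wnt ligand at 14.8, 14.5 and 12.6 CPM in control and 20.7, 23 and 18.9 CPM in homozygous libraries (log2 fold change 0.58, SE 0.0999, adjusted p = 0.0066). *Notch1* and *Jag1* did not pass (log2 fold changes -0.04 and 0.29; adjusted p = 0.787 and 0.0656). Collagens gave 2 increases among 39 (median 0.09), *Col6a1* and *Col6a2*, chains of the same microfibril, at 40.4, 39.9 and 39.4 CPM in control and 66.6, 67.6 and 46.4 CPM in homozygous libraries and 43.2, 41.3 and 40.8 CPM in control and 74.5, 68.6 and 44.9 CPM in homozygous libraries. In both, homozygous replicate 3 was closest to the controls, and the calls (log2 fold change 0.59, SE 0.121, adjusted p = 0.0127, and log2 fold change 0.59, SE 0.148, adjusted p = 0.0298) were lost without homozygous replicate 2 (0.51), and without control replicate 1 (0.61), control replicate 3 (0.57), homozygous replicate 1 (0.45) or homozygous replicate 2 (0.52), respectively.

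Ribosomal protein genes were shifted upward by a small amount. All 76 tested lay above 0, 53 passed the adjusted p alone, all higher, and only *Rps12* was called, with a median of 0.29. In homozygous libraries 1, 2 and 3, respectively 74, 71 and 76 of the 76 lay above all controls, where 33.2%, 35.1% and 33.0% of all genes did. The median was 0.34 without homozygous replicates 1 and 2. *Rps12* measured 158, 196 and 164 CPM in control and 236, 247 and 253 CPM in homozygous libraries (log2 fold change 0.51, SE 0.0784, adjusted p = 0.0046), a call lost without control replicate 1 (0.44), control replicate 3 (0.47) or homozygous replicate 3 (0.48), and *Rplp0* 407, 419 and 369 CPM in control and 469.6, 468 and 470.4 CPM in homozygous libraries (log2 fold change 0.24, adjusted p = 0.0299). These genes have short transcripts, with a median longest transcript of 1100 nt, and the log2 fold change over all genes moved with length. Its median was 0.08 in the fifth of genes with the shortest longest transcript and -0.05 in the fifth with the longest (Spearman's rho = -0.21 across 14843 genes, which are not independent replicates). Genes called lower had a median longest transcript of 4207 nt, those called higher 2760 nt and all genes 3377 nt. The part of transcript length in any result was not tested.

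Nuclear genes of oxidative phosphorylation, whose median longest transcript was 1231 nt over 87 genes, lay on both sides of 0. Of 88 tested, 1 fell, 11 passed the adjusted p alone, all lower, and the median was -0.04, and 0.28 on the pan-neuronal scale. The call was *Cox8b*, described above, while *Atp5b* and *Sdha* had log2 fold changes of -0.26 and -0.22 (adjusted p = 0.0329 and 0.026). Mitochondrially encoded genes were not analysed here. Cholesterol synthesis genes gave no call among 23 by edgeR, also with the adjusted p alone (5 at an unadjusted p under 0.05, 0 by DESeq2, median 0.09). Heat shock and unfolded protein genes gave 1 decrease among 32 (median 0.04), the stress-induced *Hspa1a*, at 66.6, 42 and 34.2 CPM in control and 32.7, 22.4 and 27.8 CPM in homozygous libraries. Its call (log2 fold change -0.79, SE 0.212, adjusted p = 0.0369) was lost without control replicate 1 (-0.47), homozygous replicate 2 (-0.65) or homozygous replicate 3 (-0.79), and with DESeq2 (-0.79) or scaling on library totals alone (-0.73), and 19.0% of its exon bases overlap a gene on the other strand.

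Medians of the cell cycle, interferon and complement lists fell without homozygous replicates 1 and 2, the libraries with more neutrophil RNA, though not every called member followed those libraries. Cell cycle genes gave 1 increase among 39 and a median of 0.32, which became -0.01 without homozygous replicates 1 and 2. It was *Mki67*, a marker of dividing cells, at 1.97, 1.41 and 1.72 CPM in control and 8.76, 4.86 and 2.18 CPM in homozygous libraries, and its call (log2 fold change 1.63, SE 0.406, adjusted p = 0.0282) was lost without control replicate 1 (1.74), control replicate 2 (1.51), control replicate 3 (1.64), homozygous replicate 1 (1.05) or homozygous replicate 2 (1.69). Interferon response genes gave 3 increases among 27 and a median of 0.30, which became -0.04 without those replicates. *Oasl2*, an interferon-induced synthetase-like protein, measured 11.9, 14.7 and 11.8 CPM in control and 18.9, 29.1 and 19 CPM in homozygous libraries (log2 fold change 0.80, SE 0.165, adjusted p = 0.013), a call lost without control replicate 1 (0.75) or control replicate 3 (0.75). *Bst2* (log2 fold change 0.71, SE 0.171, adjusted p = 0.0248) and *Mx2* (log2 fold change 1.38, SE 0.313, adjusted p = 0.0192), both antiviral proteins, lost their calls without control replicate 1 (0.60), control replicate 3 (0.64), homozygous replicate 1 (0.75) or homozygous replicate 2 (0.52), and without control replicate 1 (1.21), homozygous replicate 1 (1.31) or homozygous replicate 2 (1.15), respectively. Complement and cytokine genes gave no call among 22 by edgeR (11 at an unadjusted p under 0.05 and 2 calls, higher, by DESeq2, median 0.31, and 0.12 without those replicates), with 1 past the adjusted p alone.

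Of the 10 largest increases among genes with a mean of at least 10 CPM, some were outside these lists or only touched them. *Bcl2l11*, which encodes the apoptosis activator BIM, measured 22.1, 24.4 and 19.8 CPM in control and 36.1, 44.6 and 43.5 CPM in homozygous libraries (log2 fold change 0.90, SE 0.102, adjusted p = 0.00124). All its homozygous libraries lay above all controls, as held for 15.8% of all genes tested. *Klhl14*, a substrate adaptor of the ubiquitin system, measured 8.21, 10.2 and 10.9 CPM in control and 16.9, 17.8 and 22.5 CPM in homozygous libraries (log2 fold change 0.96, SE 0.137, adjusted p = 0.00339), with 13.8% of its exon bases in an overlap on the opposite strand. Both were called in each fit that left out 1 library.

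**Figure D5:**
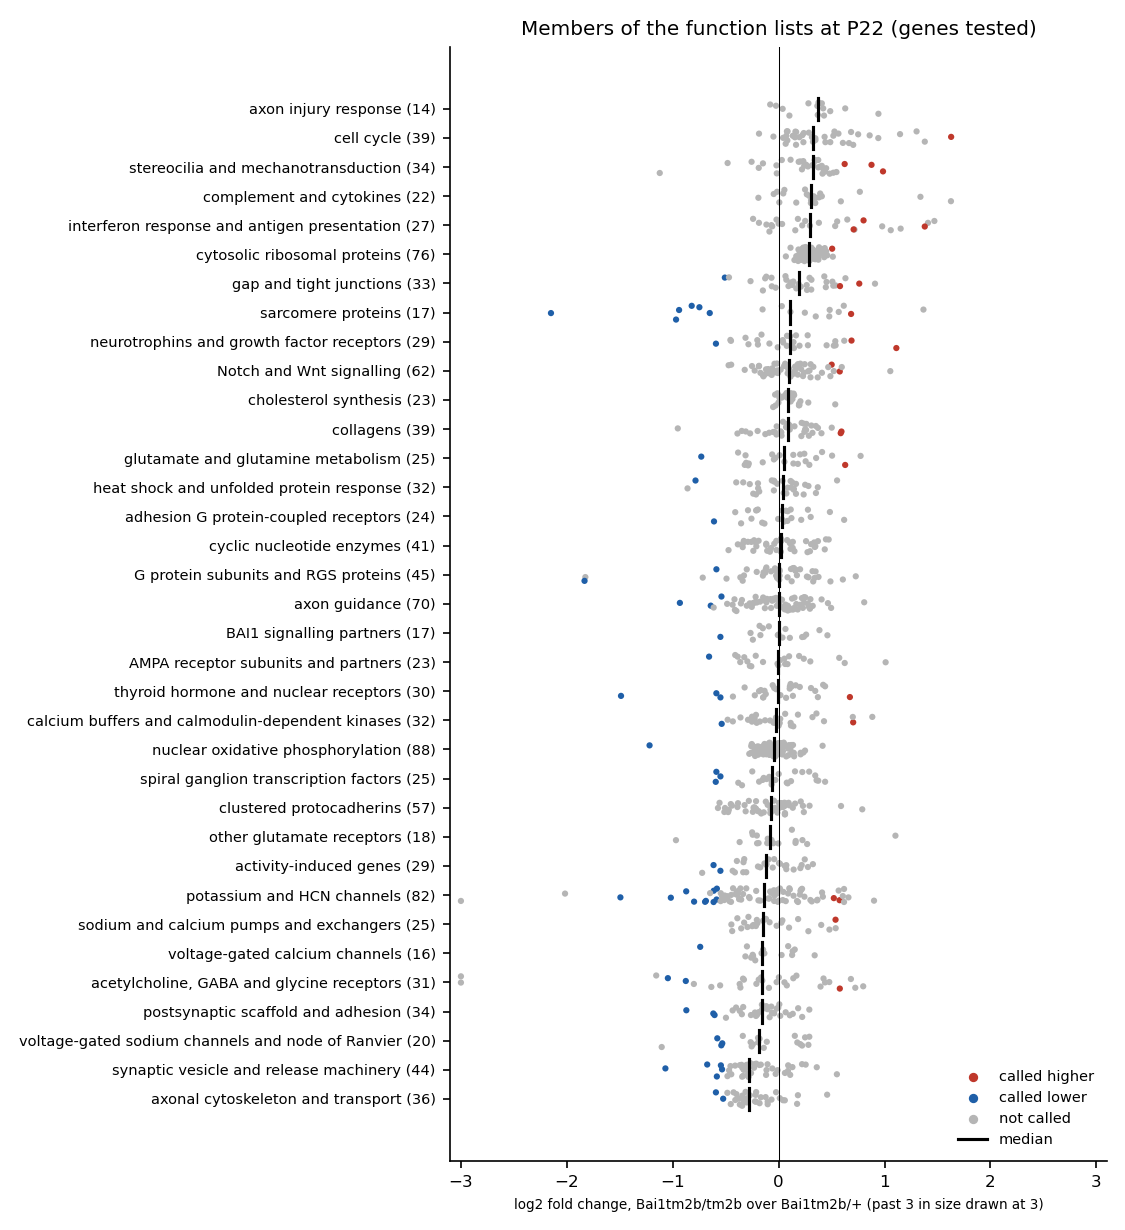
Each point is a gene of 1 of the function lists that could be tested, with the number tested in parentheses; the horizontal axis is the log2 fold change of *Bai1tm2b/tm2b* over *Bai1tm2b/+*, black bars are list medians, and values past 3 in size are drawn at 3. Synaptic vesicle and axonal cytoskeleton genes lie lowest (both medians -0.28), ribosomal protein genes form a narrow cluster above 0 (median 0.29), and 6 of the 17 sarcomere genes lie among the decreases.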

How the data were processed

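Poly A libraries were prepared from the sensory epithelium and spiral ganglion of P22 mice and sequenced as paired-end reads. The authors mapped the reads to mm10 and quantified them with Salmon. The deposited values are estimated counts per gene without normalization. The annotation release and whether counting used strand are not given in the sources used here, and the tables of other ages were not used here. No column of the P22 table was left out (0 unused).

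Estimated counts were rounded and analysed in R 4.3.3 with edgeR 4.0.16. After filterByExpr and TMM scaling, the 3 *Bai1tm2b/tm2b* libraries were compared with the 3 *Bai1tm2b/+* libraries by the quasi-likelihood test, with Benjamini-Hochberg adjustment over the 15443 genes tested. A gene was called at an adjusted p value under 0.05 when its log2 fold change passed 0.5 in size with a standard error below 0.5. DESeq2 1.42.0 and other settings were alternatives. Both count fits were tested on simulated data with 200 planted genes. With no replicates below the pool, p values measure the spread between pools.

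The 63 gene lists (27 of cell classes and 36 of functions, 1701 genes found) and the genes named were chosen with earlier results of these data known, and 6 listed symbols were not matched. Counts for any list that holds genes the study named as changed in these samples are not independent evidence of direction. Genes named were *Adgrb1*, the first 3 tested members of each list, list members that were called, and the 10 largest increases and 10 largest decreases among called genes with a mean of at least 10 CPM. Lists are described by counts and medians, with no test over a list. Gene positions, exon overlaps and exon sequences came from GENCODE M21 (GRCm38) and promoters from RefSeq (GRCm38.p6, 11626 promoters of genes tested). A few genes that enter the list counts are not reported here by name.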

Additional observations from a re-analysis of the deposited data

How the results depend on the processing

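The counts over all genes kept within 1.5 times their value under RLE size factors, DESeq2 and no filter on low counts. Genes called higher numbered 779 with the adjusted p alone, 3136 when scaled on pan-neuronal genes and 15 without homozygous replicates 1 and 2 (an alternative chosen after seeing the data, in which the lone homozygous library is assumed to vary like the controls), and between 108 and 305 with 1 library left out. Genes called lower numbered 1125 with the adjusted p alone, 134 with library totals alone, 43 when scaled on pan-neuronal genes and 14 without homozygous replicates 1 and 2, and between 125 and 283 with 1 library left out. The log2 fold change of *Adgrb1* was -0.27 when scaled on pan-neuronal genes and -0.58 (adjusted p = 0.0610) without homozygous replicates 1 and 2, so the gene was called in neither, and between -0.64 and -0.57 with 1 library left out. In the same fit without homozygous replicates 1 and 2, *Slc4a1* (-0.25) and *Slc4a11* (-0.24) changed sign. Fewer samples leave less power by construction, and the scaled fit shifts all genes by construction; other causes were not tested. With the replicate number as a block (replicate block), 261 genes were called higher and 205 lower. The numbers gave no clear pairing of the libraries. Deviations of same-numbered libraries correlated at 0.0604, -0.00191 and 0.0514. Control replicates 1 and 3 correlated best with their own number, and control replicate 2 with homozygous replicate 3 (0.0272). Correlations of so few libraries cannot exclude a pairing. Of the named genes, 22 of 56 called higher and 33 of 58 called lower were called in each of the 6 fits that left out 1 library. Genes with few counts and 3 pools a group limit what could be called.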
